A study of Mus musculus with 24 samples.

Results

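The miRNAs of the hippocampus and of the hypothalamus were compared in mice at 2 months of age. The members are the small-RNA libraries of mice at 2 months, chosen by their labelled tissue and age: 3 hippocampal and 3 hypothalamic libraries, 6 of the 12 miRNA samples and of the 24 samples in the series. The study sequenced mRNA and small RNA from hippocampus and hypothalamus of male C57BL/6J mice at 2 and 15 months, to follow how brain RNA changes with age. No treatment is listed, and the replicates were 3 mice; the labels number the mice 1 to 3 in each tissue at 2 months but do not state that a number stands for the same animal in both. The mRNA libraries of the same groups served to check the tissue labels and to measure the genes that hold miRNA hairpins.

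A miRNA is cut from a hairpin RNA, often from an intron of a gene or from a transcript that holds many hairpins in a row. Drosha and Dgcr8 release the hairpin in the nucleus, Dicer cuts it, and 1 arm, or either arm, is loaded into an Argonaute protein. The loaded strand pairs with mRNAs mainly through its seed near the 5′ end and lowers their stability or translation, so miRNAs with the same seed share many targets. In the brain, many miRNAs are known for enrichment in neurons, in glia or in particular regions. The hippocampus is rich in excitatory pyramidal and granule cells, and the hypothalamus is rich in inhibitory and peptide-secreting neurons.

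The mature sequences below are those on which the tissue comparison turned, as deposited with the counts. Each is printed 5′ to 3′ with the seed, bases 2 to 8, in capitals. The miR-128 and miR-139 sequences are shown because both of their hairpin arms, and the genes around the hairpins, were higher in hippocampus. The mature miR-128-3p is made from 2 hairpins, and the 5′ strands tell these hairpins apart.
miR-128-3p: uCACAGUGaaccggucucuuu
miR-128-1-5p: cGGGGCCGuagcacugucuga
miR-128-2-5p: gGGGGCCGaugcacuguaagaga
miR-139-5p: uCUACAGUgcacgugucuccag
miR-139-3p: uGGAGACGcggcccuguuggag

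The next sequences belong to families with members called higher in hippocampus, and among those shown miR-212-3p was not called. miR-221-3p and miR-222-3p carry the seed GCUACAU, miR-132-3p and miR-212-3p the seed AACAGUC, and miR-16-5p and miR-195a-5p the seed AGCAGCA. miR-184-3p and miR-9-5p are shown as a miRNA with a large fold difference and as an abundant one.
miR-221-3p: aGCUACAUugucugcuggguuuc
miR-222-3p: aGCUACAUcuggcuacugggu
miR-132-3p: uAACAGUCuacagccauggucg
miR-212-3p: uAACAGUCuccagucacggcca
miR-16-5p: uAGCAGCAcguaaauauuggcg
miR-195a-5p: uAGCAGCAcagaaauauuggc
miR-184-3p: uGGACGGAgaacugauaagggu
miR-9-5p: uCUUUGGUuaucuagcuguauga

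The sequences below were called higher in hypothalamus and are shown for large fold differences, for a shared place in the genome or, with miR-127-3p, for abundance. No seed recurs among them. miR-653-5p with miR-489-3p, and miR-216a-5p with miR-217-5p, are neighbours in the genome. miR-770-3p, miR-134-5p and miR-127-3p come from the imprinted Dlk1-Dio3 region of chromosome 12.
miR-653-5p: gUGUUGAAacaaucucuacug
miR-489-3p: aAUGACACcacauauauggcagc
miR-3547-3p: uGAGCACCaccccucucucag
miR-216a-5p: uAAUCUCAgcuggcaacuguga
miR-217-5p: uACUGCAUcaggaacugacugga
miR-1251-5p: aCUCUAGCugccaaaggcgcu
miR-490-5p: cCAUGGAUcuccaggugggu
miR-298-5p: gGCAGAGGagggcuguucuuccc
miR-296-5p: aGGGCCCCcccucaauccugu
miR-770-3p: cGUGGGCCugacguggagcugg
miR-134-5p: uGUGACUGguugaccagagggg
miR-127-3p: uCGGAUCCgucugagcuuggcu

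The last set comes from introns of Htr2c, the serotonin 2C receptor gene on chromosome X. Within this 1 gene, some mature miRNAs were higher in hippocampus and others in hypothalamus, in a single case from the arms of the same hairpin.
miR-1912-3p: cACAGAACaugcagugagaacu
miR-1298-5p: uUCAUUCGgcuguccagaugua
miR-1298-3p: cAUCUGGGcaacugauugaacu
miR-448-5p: gAACAUCCugcauagugcugcc
miR-764-3p: aGGAGGCCauaguggcaacugu
miR-3552: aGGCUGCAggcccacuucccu

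The hippocampal miRNA libraries held 14617174, 12350104 and 12620286 reads summed over mature names in mice 1 to 3. The hypothalamic libraries held 13791383, 10788177 and 13803885. Between 1006 and 1075 mature names had a read in a library, and 715 of 1435 names passed the filter on low counts. Values are CPM, the counts in a library scaled to 1000000 reads, after normalisation by the trimmed mean of M-values, and 3 reads correspond to 0.178 CPM in the hippocampal library of mouse 1. Counts of reads from PCR-amplified libraries are not counts of independent molecules, and ligation favours some sequences, so levels are compared between tissues and not between miRNAs. A miRNA was called where its fold change exceeded 1.5 and its p from the quasi-likelihood test of edgeR, adjusted by Benjamini-Hochberg, was under 0.05.

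The tissue labels were checked against marker mRNAs. All 12 hypothalamic markers were called higher in hypothalamus, where 8.20% of all genes were, with a median log2 fold change, hippocampus over hypothalamus, of -4.34 against 0.00255 over all 15237 genes tested. Hcrt, which encodes the orexin peptides, stood at 0.688, 0.887 and 0.207 CPM in the hippocampal libraries of mice 1 to 3. In the hypothalamic libraries it stood at 47.2, 53.9 and 43.3 CPM. The 12 markers summed to 24.4, 19.3 and 11.5 CPM in hippocampus and 350.3, 389.6 and 351 CPM in hypothalamus, with Pmch, the gene of melanin-concentrating hormone, the most abundant. Ghrh was at 0 in the hippocampal library of mouse 3. Of 10 hippocampal markers, 7 were called higher in hippocampus, where 10.1% of all genes were. Prox1, C1ql2 and Iyd were not called. Prox1, a transcription factor of dentate granule cells, read 37.9, 20.0 and 15.7 CPM in hippocampus and 28.2, 21.8 and 29.1 CPM in hypothalamus, so the tissues overlapped for it. The vesicular glutamate transporter Slc17a7 was 10.8-fold higher in hippocampus, and Slc17a6 was 6.41-fold higher in hypothalamus. Of the inhibitory markers, Gad2 and Slc32a1 were called higher in hypothalamus, 2 of 3, against 8.20% of all genes.

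Other markers differed between libraries of the same tissue. The striatal markers Adora2a, Drd1 and Rgs9 were called higher in hippocampus, 3 of 3 members of their list, against 10.1% of all genes. Adora2a, an adenosine receptor of striatal neurons, read 24.4, 44.1 and 76.3 CPM in the hippocampal libraries of mice 1 to 3, lowest in mouse 1 and highest in mouse 3. The summed level of the 3 striatal markers was 113, 194 and 320.2 CPM in hippocampus, with Rgs9 the most abundant, and 40.9, 45.3 and 76.9 CPM in hypothalamus. None was at 0 in a library. Lamp5, a gene of cortical neurons, was called higher in hippocampus too, at 52.0, 119 and 157 CPM against 13.5, 15.5 and 17.3 CPM, lowest in hippocampal mouse 1 and highest in mouse 3. Rorb, another gene of cortical neurons, was not called, and its tissues overlapped. The hippocampal markers ran the other way, with a summed level of 550.5, 459 and 297 CPM in hippocampal mice 1 to 3 and of 181, 177 and 200.4 CPM in hypothalamus, Wfs1 the most abundant and none at 0. Neurod6, a transcription factor of pyramidal neurons, read 139, 107 and 80.9 CPM. Across the 73 miRNAs called higher in hippocampus, 35 (47.9%) were lowest in mouse 1 and highest in mouse 3, as were 29.1% of all tested miRNAs. Scaled by total reads alone, 22 of the 73 (30.1%) and 18.9% of all ran that way. The part that these marker differences play in the miRNA results was not tested.

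Choroid plexus markers were higher in hippocampus as well, with 4 of 6 called, against 10.1% of all genes. Ttr, the main secreted protein of choroid plexus and the most abundant of the 6, read 2208, 2501 and 1632 CPM in hippocampus and 555, 22.1 and 466 CPM in hypothalamus. Its libraries did not overlap, but it was not called (edgeR adjusted p = 0.0752). The summed level of the 6 markers was 2445, 2731 and 1795 CPM against 623, 43.4 and 543 CPM, and none was at 0. The hypothalamic library of mouse 2 thus held the least choroid plexus mRNA by a wide margin. All 4 microglial markers were called higher in hippocampus, against the same 10.1%, summed 245, 294 and 277 CPM against 158, 167 and 174 CPM, with Csf1r the most abundant. Oligodendrocyte, endothelial, mural, ependymal and erythroid markers gave 0 calls among 5, 3, 3, 3 and 3 genes. Astrocyte markers split, with Slc1a2 called higher in hippocampus and Aqp4 in hypothalamus among 4 genes, and 2 of 4 thalamic markers, Lef1 and Calb2, were called higher in hypothalamus, where 8.20% of all genes were. Of the pituitary markers, Prl, Gh, Pou1f1 and Tshb were too low to test. Cga read 0 in all hippocampal libraries against 1.19, 0.111 and 0.497 CPM in hypothalamic mice 1 to 3. It was the 1 pituitary marker tested and was called higher in hypothalamus (edgeR adjusted p = 0.0290), as were 8.20% of all genes. In bulk tissue, fewer cells of a type and less RNA per cell cannot be told apart, which holds for all results below.

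**Figure D1:**
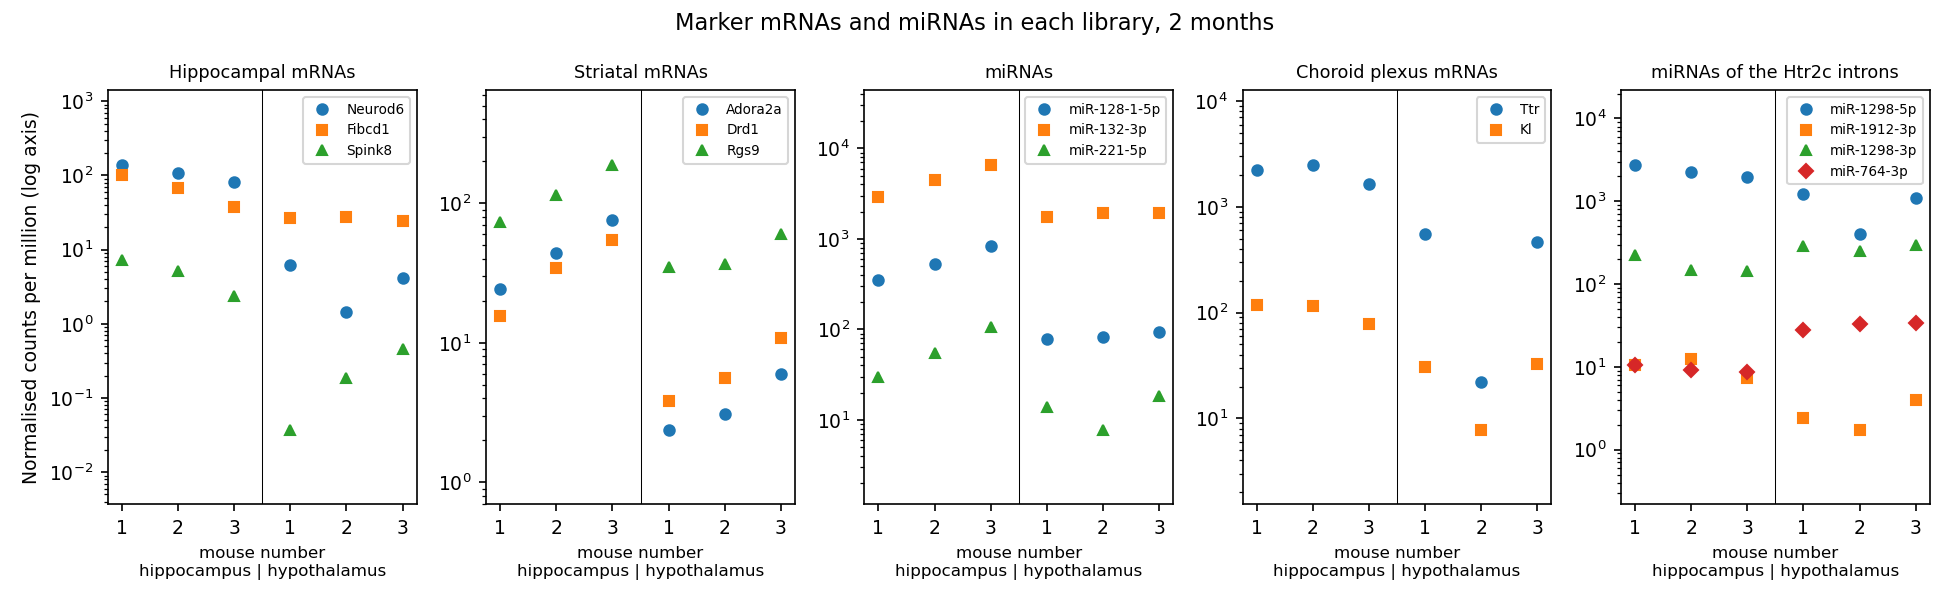
Levels of marker mRNAs and of selected miRNAs in each library at 2 months, in normalised CPM on a log axis, with hippocampal mice 1 to 3 left of the line and hypothalamic mice 1 to 3 right of it. Adora2a ran from 24.4 to 76.3 CPM over the hippocampal libraries and miR-128-1-5p from 349.5 to 825, while Ttr and miR-1298-5p shared their lowest value in the hypothalamic library of mouse 2, at 22.1 and 408 CPM.

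At 2 months, 176 of 715 tested miRNAs (24.6%) differed between the tissues. Of these, 73 (10.2%) were higher in hippocampus and 103 (14.4%) in hypothalamus. The libraries of the tissues did not overlap for any of the 176; over all tested miRNAs, 150 (21.0%) were higher in each hippocampal library and 187 (26.2%) in each hypothalamic library. In this fit hypothalamus held more of the larger differences: 55 called names were over 2-fold higher there and 15 over 4-fold, against 37 and 5 in hippocampus. These fold counts were not repeated under other settings. Of the 176 called names, 15 share all their counts with another name. No called miRNA was at 0 reads throughout the lower tissue. The median log2 fold change of all tested miRNAs was -0.08. Without the hypothalamic library of mouse 3 the hypothalamic count was 61, and without that of mouse 2 it was 63. With names that share all their reads merged, the split of calls was 90 to 78 in place of 73 to 103. DESeq2 gave 101 and 101, and edgeR with relative-log-expression factors 88 and 85, so the tissue with more calls changed with the setting.

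**Figure D2:**
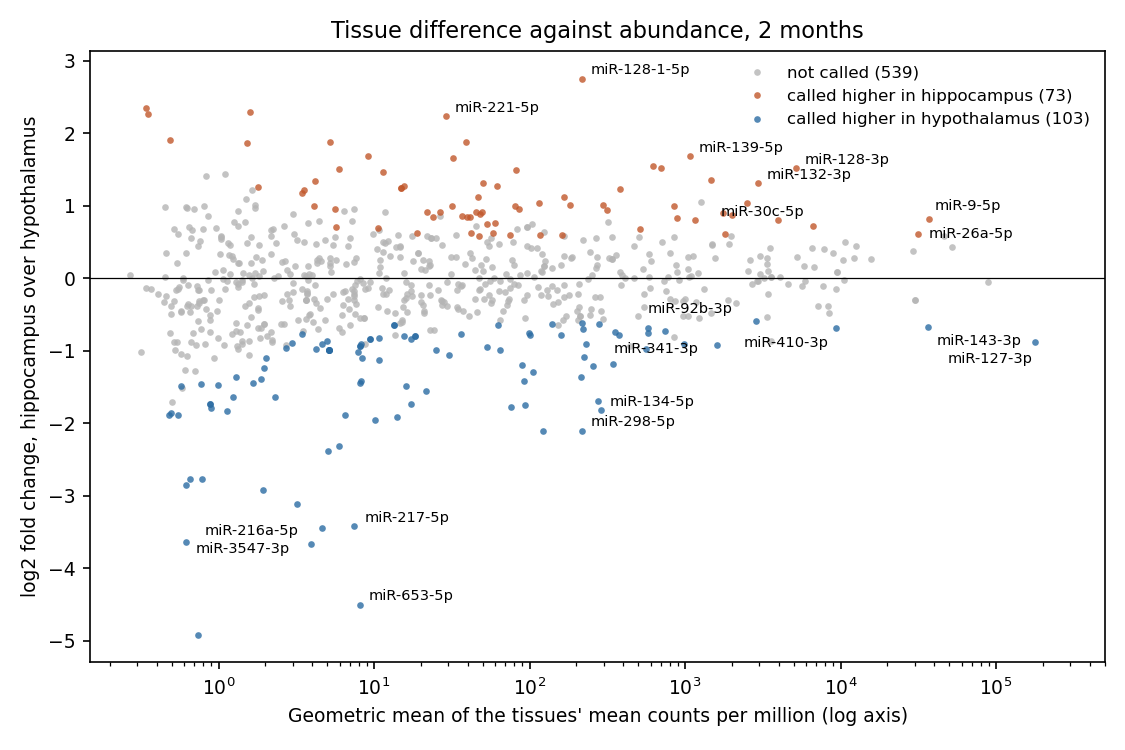
The log2 fold change at 2 months, hippocampus over hypothalamus, of each of the 715 tested miRNAs against the geometric mean of its mean CPM in the tissues, on a log axis. The 73 miRNAs called higher in hippocampus include abundant ones such as miR-9-5p (0.82), and the largest differences, such as miR-653-5p (-4.50), lie among scarce miRNAs higher in hypothalamus.

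The most abundant miRNAs were common to both tissues, and their levels set the composition of each library. The 10 most abundant names were the same in hippocampus and in hypothalamus: miR-127-3p, miR-181a-5p, miR-30a-5p, miR-191-5p, miR-9-5p, miR-26a-5p, let-7f-5p, miR-143-3p, miR-486a-5p and miR-486b-5p, the last 2 with identical counts. They held 57.0%, 57.5% and 59.2% of the counts summed over names in hippocampal mice 1 to 3. In hypothalamic mice 1 to 3 they held 62.2%, 63.7% and 62.1%. The reads of miR-486a-5p and miR-486b-5p enter these shares at both names. miR-127-3p, an imprinted miRNA opposite the gene Rtl1, alone held 13.9%, 12.7% and 15.5% of hippocampal counts. It held 23.7%, 27.1% and 24.2% of hypothalamic counts, so its tissues did not overlap. In CPM, miR-127-3p averaged 131456 ± 20299 in hippocampus and 242797 ± 20219.5 in hypothalamus (SD, n = 3), 1.85-fold higher in hypothalamus (edgeR adjusted p = 0.00402). Of the 93 miRNAs that averaged at least 1000 CPM in either tissue, 17 were called higher in hippocampus and 6 in hypothalamus, against 10.2% and 14.4% of all 715.

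Abundant miRNAs higher in hippocampus included miR-9-5p, a regulator of neural progenitors and neurons that is highly enriched in brain. It stood at 47243, 57272 and 42857 CPM in hippocampal mice 1 to 3 and at 27955, 25283 and 30124 CPM in hypothalamic mice 1 to 3. The tissues were separate, at a 1.77-fold difference (log2 0.82 ± 0.14, SE; edgeR adjusted p = 0.000808). miR-26a-5p stood at 33106, 42031 and 41916 CPM in hippocampus and at 25519, 24767 and 26163 CPM in hypothalamus, 1.53-fold higher in hippocampus (edgeR adjusted p = 0.0056). This is close to the fold limit, and the call ended without hippocampal mouse 2 (log2 0.58) or mouse 3 (0.56), and with at least 10 counts asked of each library (0.56). miR-30c-5p, of the miR-30 family, was 1.65-fold higher in hippocampus with separate libraries (edgeR adjusted p = 0.0284), and its adjusted p was 0.0956, 0.0858 and 0.0759 without hippocampal mouse 2, hippocampal mouse 3 and hypothalamic mouse 2. Among the rest of the 10 most abundant names, miR-181a-5p averaged 87199 and 90144 CPM and was not called (log2 -0.05).

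On the hypothalamic side, 6 abundant miRNAs were called. miR-127-3p and miR-433-3p, the latter chosen after its values were seen (1.88-fold; edgeR adjusted p = 0.00321), kept their calls under all 16 alternatives, and the other 4 lay close to the limits. miR-143-3p, which is strong in vascular smooth muscle, stood at 35270.0, 29220.5 and 23046 CPM in hippocampus and 51795, 49662 and 37494 CPM in hypothalamus. It was 1.59-fold higher in hypothalamus (edgeR adjusted p = 0.0355), with adjusted p of 0.0943, 0.145, 0.141 and 0.147 without hippocampal mouse 2, hippocampal mouse 3, hypothalamic mouse 1 and hypothalamic mouse 2. It was also between 0.0531 (limma) and 0.0601 (total reads) under 5 other settings. The mural markers Pdgfrb, Acta2 and Myh11 were not called, with a median log2 fold change of 0.09. miR-410-3p was 1.62-fold higher in hypothalamus (edgeR adjusted p = 0.0141), and without hippocampal mouse 2 or 3, or hypothalamic mouse 1 or 2, its adjusted p was 0.0683, 0.0594, 0.0607 and 0.0741. miR-341-3p, from the same imprinted region as miR-410-3p, was 1.90-fold higher (edgeR adjusted p = 0.0356). It lost its call under 8 of 16 alternatives: without hippocampal mouse 2 or 3 (adjusted p 0.129 and 0.0982), without hypothalamic mouse 1, 2 or 3 (0.0607, 0.14 and 0.0911), and with relative-log-expression factors (0.0535), merged names (0.0519) or sums over precursors (0.0548). miR-92b-3p, 1.51-fold higher (edgeR adjusted p = 0.048), lost its call under 13 of 16 alternatives: without any 1 of the 6 libraries (log2 -0.66 to -0.47, adjusted p 0.0616 to 0.21), with total reads, limma, merged names, DESeq2, relative-log-expression factors or sums over precursors (0.0588 to 0.0812), and with the 6 libraries at 2 months alone (log2 -0.58).

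The largest difference in favour of hippocampus was in the miR-128 family, a neuronal miRNA known to restrain excitability. Its 5′ strand miR-128-1-5p stood at 349.5, 530.3 and 825 CPM in hippocampal mice 1 to 3 and at 77.6, 82.3 and 93.0 CPM in hypothalamic mice 1 to 3. Every hippocampal library was above every hypothalamic one, and hippocampal mouse 3 held the most. The fold was 6.74 (log2 2.75 ± 0.27, SE; edgeR adjusted p = 1.06e-05). The guide strand miR-128-3p stood at 7077, 9108 and 10108 CPM in hippocampus and 3157, 3349 and 2689 CPM in hypothalamus, 2.86-fold higher (edgeR adjusted p = 7.29e-05). The scarcer miR-128-2-5p was 3.23-fold higher (edgeR adjusted p = 0.00179). The 2 hairpins lie in introns of R3hdm1 (chr1:128202361-128202430, plus strand) and Arpp21 (chr9:112118636-112118711, minus strand), in RefSeq coordinates on mm10. Both host mRNAs were called higher in hippocampus. Arpp21, which encodes a phosphoprotein of forebrain neurons, read 310.2, 459 and 624 CPM against 89.3, 96.0 and 106 CPM (log2 2.26), and R3hdm1 read 262, 343 and 446 CPM against 144, 148 and 173 CPM (log2 1.18). Both hosts and all 3 strands were lowest in hippocampal mouse 1 and highest in mouse 3, as was Adora2a; the part of that order in the difference was not tested.

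miR-139, encoded in an intron of Pde2a (chr7:101475376-101475443, plus strand), was higher in hippocampus on both arms. miR-139-5p stood at 1425, 1997 and 2382 CPM in hippocampus and 483, 585 and 737 CPM in hypothalamus, a 3.21-fold difference with no overlap (log2 1.68 ± 0.21, SE; edgeR adjusted p = 7.29e-05). miR-139-3p read 49.9, 45.2 and 76.7 CPM against 16.0, 18.4 and 19.7 CPM, 3.17-fold higher. Pde2a, a phosphodiesterase that degrades cyclic nucleotides, read 441, 519 and 532 CPM against 134, 146 and 183 CPM. Its 3.22-fold difference stood next to that of both arms.

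All 4 mature strands of miR-221 and miR-222, neighbours on chromosome X (chrX:19146294-19146388 and chrX:19146893-19146971, minus strand), were called higher in hippocampus, where 10.2% of all miRNAs were, with a median log2 fold change of 1.53. The strands were picked as called miRNAs with large fold differences, so this count follows from that choice. miR-221-3p stood at 984, 1254 and 1319 CPM in hippocampus and 338, 385 and 517 CPM in hypothalamus (2.87-fold; edgeR adjusted p = 0.000342). miR-222-3p stood at 760.2, 1113 and 1294 CPM and 305, 328 and 456 CPM (2.91-fold; edgeR adjusted p = 0.000206). The libraries did not overlap for either guide strand, and the pair differed by nearly the same fold. Of the passenger strands, miR-221-5p read 29.9, 54.6 and 106 CPM against 14.0, 7.75 and 18.3 CPM, 4.72-fold higher (edgeR adjusted p = 0.0092). That call rested on hippocampal mouse 3, without which its log2 fold change was 1.66 and its adjusted p 0.0579.

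miR-132 and miR-212, activity-regulated miRNAs made from a shared transcript on chromosome 11, were called in part. miR-132-3p stood at 2905, 4473 and 6608 CPM in hippocampus and 1742, 1954 and 1952 CPM in hypothalamus, 2.48-fold higher with no overlap (edgeR adjusted p = 0.000987). Its other arm miR-132-5p was 2.41-fold higher (edgeR adjusted p = 0.00175). miR-212-3p, with the same seed, read 248, 317 and 407 CPM against 196, 229 and 235 CPM (log2 0.56; edgeR adjusted p = 0.0674) and was not called. The cluster gave 2 hippocampal calls of 4, against 10.2% of all miRNAs, with a median of 0.95, and 4 of 4 without hippocampal mouse 1. It also gave 4 with DESeq2, scaling by total reads or merged names, and 3 with limma or sums over precursors, so the calls of miR-212 changed with the setting. Its members, too, were lowest in hippocampal mouse 1 and highest in mouse 3.

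miR-184-3p stood at 38.8, 104 and 82.9 CPM in hippocampus and 18.3, 25.0 and 18.02 CPM in hypothalamus. Its libraries were separate despite the spread in hippocampus, and it was 3.69-fold higher there (edgeR adjusted p = 0.000495). miR-129-1-3p read 70.9, 145 and 197 CPM against 50.1, 38.0 and 59.0 CPM, 2.80-fold higher in hippocampus (edgeR adjusted p = 0.0092), and without hippocampal mouse 3 its adjusted p was 0.0547.

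**Figure D3:**
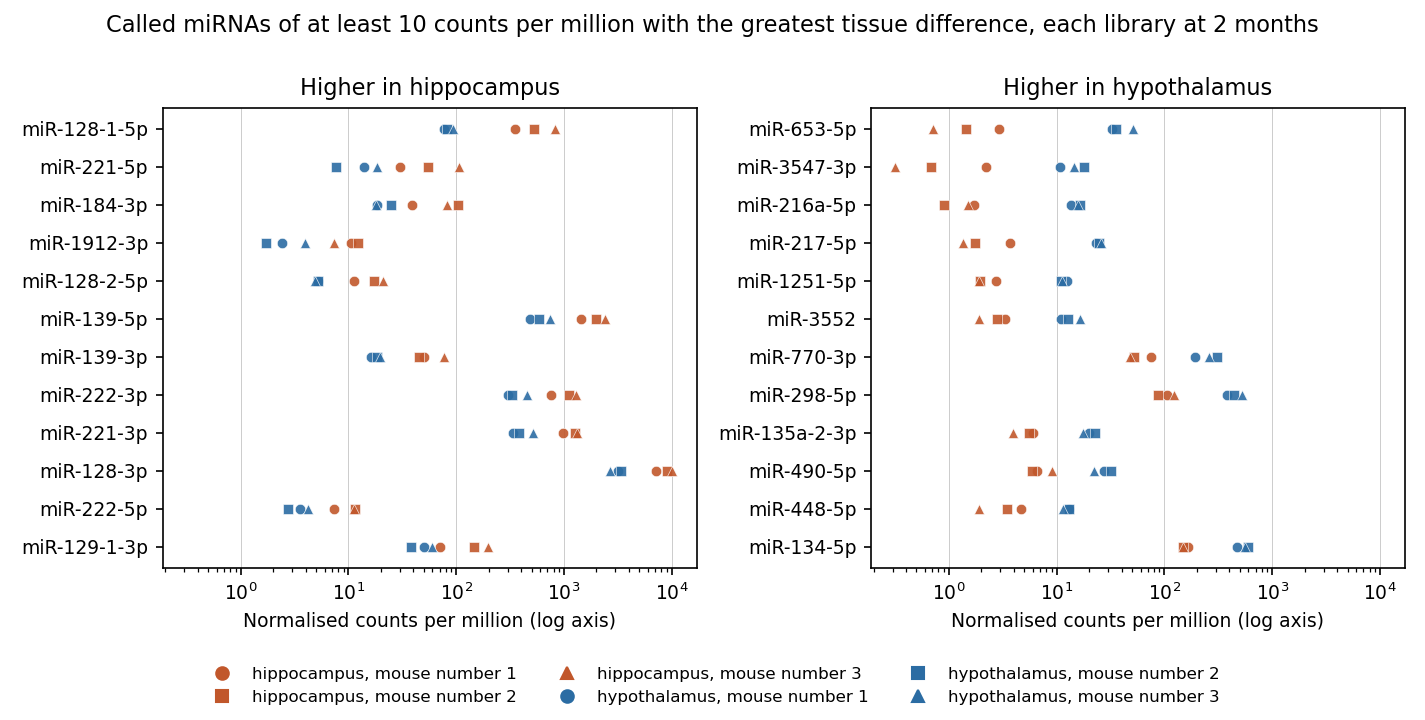
Normalised CPM, on a log axis, of the 12 called miRNAs with the largest fold difference in each direction and at least 10 CPM in the higher tissue, 1 point per library at 2 months. Separate libraries were a condition of the choice, so no miRNA has overlapping tissues. miR-128-1-5p spans 349.5 to 825 CPM in hippocampus and 77.6 to 93.0 in hypothalamus, and miR-653-5p spans 0.714 to 2.91 and 32.5 to 50.9.

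Among the miRNAs of hypothalamus, the largest difference above 10 CPM was that of miR-653-5p. It stood at 2.91, 1.43 and 0.714 CPM in hippocampal mice 1 to 3 and at 32.5, 35.2 and 50.9 CPM in hypothalamic mice 1 to 3. The tissues lay far apart, 22.6-fold (log2 -4.50 ± 0.35, SE; edgeR adjusted p = 1.47e-06). The log2 fold change of miR-653-5p ran from -5.16 to -3.94 over 15 alternatives. Its hairpin lies in an intron of Calcr, the calcitonin receptor gene (chr6:3721301-3721385, minus strand). The same gene holds miR-489 (chr6:3721897-3722003), named after its values were seen. miR-489-3p read 1.42, 0.830 and 0.953 CPM against 8.54, 8.75 and 11.2 CPM, 8.69-fold higher in hypothalamus. Its log2 fold change, -3.12, ran from -3.38 to -2.33 over 15 alternatives. Calcr mRNA, known in hypothalamic feeding circuits, read 0.405, 0.282 and 0.207 CPM against 8.64, 10.6 and 14.2 CPM (log2 -5.20; edgeR adjusted p = 4.74e-06).

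miR-3547-3p followed the same pattern at low counts. It read 2.20, 0.679 and 0.318 CPM in hippocampus and 10.8, 17.8 and 14.6 CPM in hypothalamus, 12.7-fold higher (edgeR adjusted p = 0.000125). Its log2 fold change, -3.67, ran from -4.79 to -2.95 over 15 alternatives. Its hairpin lies in an intron of Baiap3 (chr17:25245551-25245638, minus strand), a gene of dense-core vesicle trafficking. Baiap3 mRNA read 35.7, 17.6 and 14.6 CPM against 237, 273 and 289 CPM (log2 -3.56). Within hippocampus, the miRNA and its host were both highest in mouse 1 and lowest in mouse 3.

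miR-216a and miR-217 are neighbours on chromosome 11 (chr11:28757012-28757083 and chr11:28763728-28763835, plus strand) and are best known from pancreas. miR-216a-5p read 1.72, 0.906 and 1.51 CPM in hippocampus and 13.5, 16.5 and 15.9 CPM in hypothalamus (10.9-fold; edgeR adjusted p = 0.000125). Its log2 fold change, -3.45, ran from -3.64 to -2.77 over 15 alternatives. miR-217-5p read 3.68, 1.74 and 1.35 CPM and 23.4, 24.6 and 25.9 CPM (10.6-fold; edgeR adjusted p = 8.08e-05). All 4 strands of the pair were called, against 14.4% of all miRNAs in that direction, with a median log2 fold change of -3.54. The pair was picked for the large folds of miR-216a-5p and miR-217-5p, so the count in part follows from that choice. The hypothalamic libraries of the strands were close to each other. RefSeq places both hairpins in an intron of a long noncoding RNA, Gm40818, for which no mRNA value was compared.

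Further miRNAs higher in hypothalamus lay in or near other transcripts. miR-1251-5p, in an intron of the noncoding RNA Rmst, read 2.73, 1.96 and 1.91 CPM in hippocampus and 12.5, 10.9 and 11.2 CPM in hypothalamus (5.19-fold; edgeR adjusted p = 7.29e-05). Rmst is known from neurogenesis. On the same chromosome, miR-135a-2-3p was 3.87-fold higher, with 6.00, 5.51 and 3.97 CPM against 19.8, 22.8 and 17.6 CPM (edgeR adjusted p = 0.000125). miR-490-5p, in an intron of the muscarinic receptor gene Chrm2, read 6.53, 5.96 and 9.13 CPM against 27.5, 31.8 and 22.1 CPM, 3.77-fold higher (edgeR adjusted p = 0.00125). Chrm2 mRNA read 4.77, 2.46 and 4.01 CPM against 12.5, 10.3 and 12.8 CPM and was called the same way (log2 -1.66). miR-298-5p, next to miR-296 on chromosome 2 near the imprinted Gnas locus, read 106, 87.3 and 122 CPM against 377, 445 and 529.9 CPM, 4.29-fold higher (edgeR adjusted p = 7.29e-05). All 3 tested strands of these neighbours, picked for the large fold of miR-298-5p, were called higher in hypothalamus, against 14.4% of all miRNAs. Of these, miR-296-5p (log2 -0.64), chosen after its values were seen, lost its call under 6 of 16 alternatives: limma (-0.58), merged names (-0.58), sums over precursors (-0.58), and without hippocampal mouse 1 (-0.57), hippocampal mouse 2 (adjusted p 0.0558) or hypothalamic mouse 1 (0.0511).

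**Figure D4:**
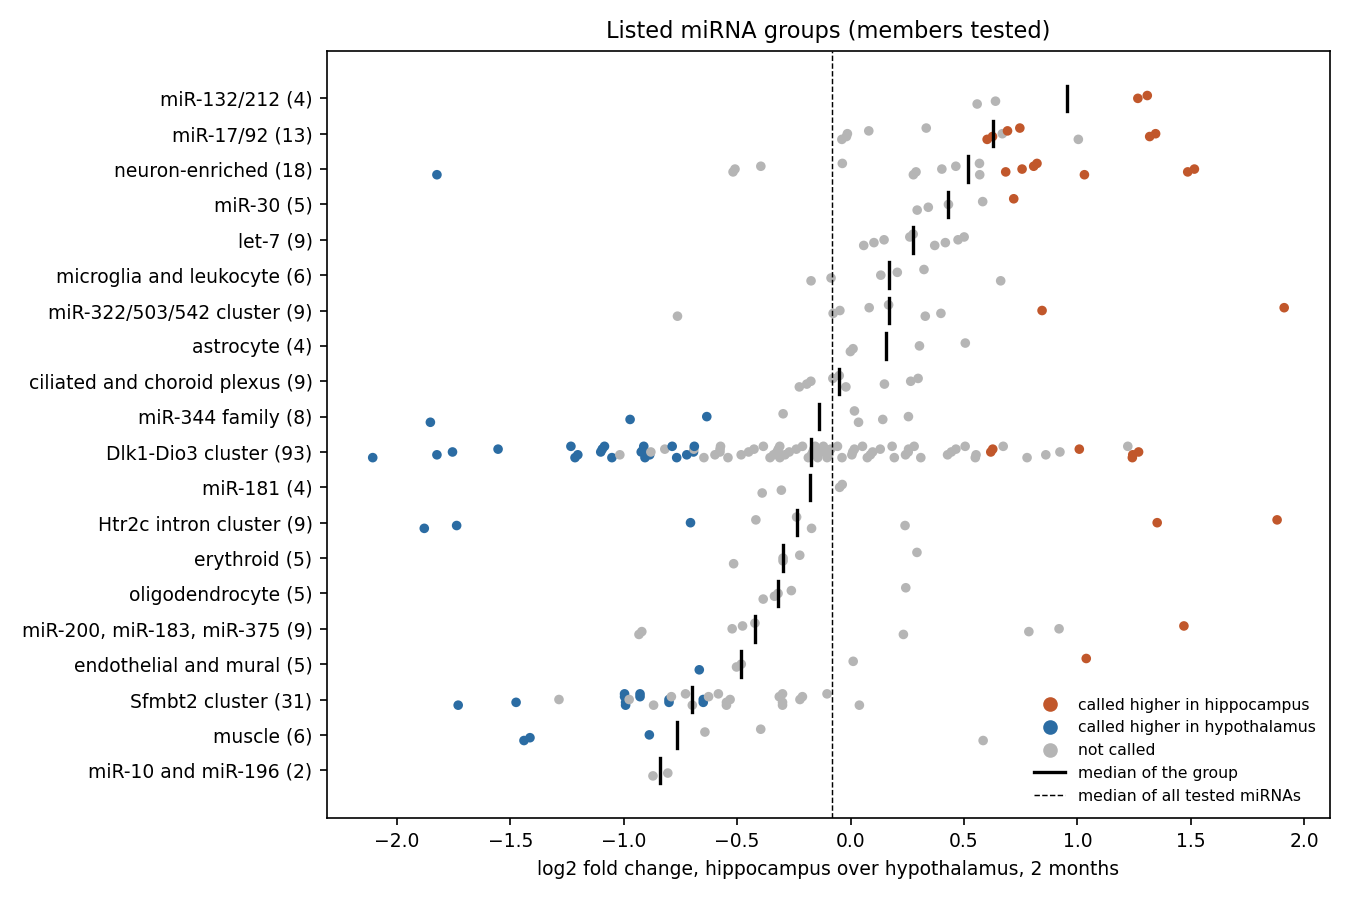
The log2 fold change at 2 months, hippocampus over hypothalamus, of each tested member of 20 listed miRNA groups, with the number tested in brackets, the group median as a bar and the median of all tested miRNAs (-0.08) as a dashed line. Group medians run from 0.95 for miR-132 and miR-212 to -0.84 for miR-10 and miR-196.

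Neuron-enriched miRNAs leaned towards hippocampus. Of 18 members tested, 7 were called higher in hippocampus, where 10.2% of all miRNAs were, and 1, miR-134-5p, in hypothalamus. The median log2 fold change of the list was 0.52, against -0.08 over all, and its summed level was 77335, 91937 and 79995 CPM in hippocampus and 50901, 47967 and 51859 CPM in hypothalamus. miR-9-5p, the most abundant member, carried most of these sums. The called members were miR-128-3p, miR-9-5p, miR-129-1-3p, miR-218-5p, miR-138-5p, miR-137-3p and miR-124-5p. miR-138-5p, a regulator of dendritic spine size, read 1230.1, 1564 and 1821 CPM against 865, 882 and 890.0 CPM (1.75-fold; edgeR adjusted p = 0.00179). miR-124-3p, the guide strand of a classic neuronal miRNA, was not called, at 7987, 8621 and 10451 CPM against 7334, 7397 and 5739 CPM (log2 0.40; edgeR adjusted p = 0.0838). Without hippocampal mouse 3 the list gave 6 and 2 calls with a median of 0.36.

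miR-218-5p is made from 2 hairpins whose passenger strands went opposite ways; these strands were chosen after their values were seen. miR-218-5p, known for its enrichment in motor neurons, read 4434, 3685 and 2693 CPM in hippocampus and 1882, 1775 and 1634 CPM in hypothalamus (2.04-fold; edgeR adjusted p = 0.00193). miR-218-2-3p, from an intron of Slit3, read 4.93, 5.74 and 5.001 CPM against 2.28, 2.28 and 2.33 CPM and was called higher in hippocampus (log2 1.18). miR-218-1-3p, from an intron of Slit2, read 5.82, 5.36 and 5.40 CPM against 9.76, 13.7 and 10.1 CPM and was called higher in hypothalamus (log2 -1.01). The mRNA of Slit3, a guidance ligand, was called higher in hippocampus (log2 1.30), and that of its relative Slit2 was not called (log2 -0.26).

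Lists for glia and other cell types held few calls. No member was called among 5 oligodendrocyte, 4 astrocyte, 6 microglia and leukocyte, 5 erythroid, and 9 ciliated and choroid plexus miRNAs, with medians of -0.32, 0.16, 0.17, -0.30 and -0.05. The last changed sign with the setting, with 0.03 by total reads and 0.10 without hypothalamic mouse 1. The erythroid list holds miR-486a-5p and miR-486b-5p, which have identical counts, as separate members. With identical names merged it had 4 members, 0 calls and a median of -0.19. By DESeq2, 1 of the 6 microglia and leukocyte miRNAs was called higher in hippocampus, and 1 of the 4 astrocyte miRNAs was called without hippocampal mouse 3. The oligodendrocyte miRNA miR-338-3p read 1680.0, 2097 and 1894 CPM against 2489, 2090.5 and 2574 CPM, and miR-204-5p, abundant in choroid plexus, read 12842, 10822 and 7731 CPM against 12928, 8808 and 10103 CPM. Their tissues overlapped. The 6 microglia and leukocyte miRNAs were thus not called where all 4 microglial mRNAs were. The endothelial and mural list gave 1 call each way among 5, against 14.4% of all miRNAs in hypothalamus and 10.2% in hippocampus. The calls were miR-143-3p in hypothalamus and its cluster partner miR-145a-5p in hippocampus. miR-145a-5p read 101, 157 and 238 CPM against 92.4, 65.5 and 83.5 CPM (edgeR adjusted p = 0.0421). Its adjusted p was 0.209 without hippocampal mouse 3 and between 0.0565 and 0.121 without hippocampal mouse 2 or any 1 hypothalamic mouse. By limma it was 0.0535. Of 6 muscle miRNAs, 3 were called higher in hypothalamus, where 14.4% of all miRNAs were, with a median of -0.76. miR-133a-3p read 53.7, 52.8 and 62.9 CPM against 155, 162 and 134 CPM (2.66-fold; edgeR adjusted p = 7.29e-05), and its seed partner miR-133b-3p was 2.71-fold higher. The third, miR-208b-3p, was at an adjusted p of 0.0485 and lost its call under 13 of 16 alternatives: without any 1 of the 6 libraries (0.0615 to 0.188), with mouse number as a block (0.0654), and with relative-log-expression factors, total reads, no filter, limma, merged names or sums over precursors (0.0652 to 0.0739).

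Among broadly expressed families, the miRNAs of the miR-17/92 group promote proliferation and share seeds across 3 related clusters. Of 13 members tested, 6 were called higher in hippocampus, where 10.2% of all miRNAs were, and 0 in hypothalamus, with a median of 0.63. miR-20a-5p read 65.2, 67.6 and 75.4 CPM in hippocampus and 42.3, 36.3 and 45.5 CPM in hypothalamus (1.68-fold; edgeR adjusted p = 0.005). miR-19b-3p read 51.7, 84.7 and 101 CPM against 36.0, 23.1 and 35.7 CPM (2.49-fold; edgeR adjusted p = 0.00885). The group sum, 2390.1, 2195 and 2534 CPM against 2231, 2292 and 2194 CPM, overlapped between the tissues. Its most abundant members, miR-92a-3p and miR-25-3p, were not called. Leaving out any 1 library left 4 of the 6 calls.

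miRNAs with the seed AGCAGCA, the miR-15/16 family of cell cycle regulators, gave 4 calls of 6 in hippocampus, against 10.2% of all miRNAs, and 0 in hypothalamus, with a median of 0.82. The family was picked with its values in view, and miR-322-5p among the 4 lost its call under 4 of 16 alternatives, given below. miR-16-5p stood at 4209, 5614 and 5929.9 CPM against 3181, 2821 and 3053 CPM (1.74-fold; edgeR adjusted p = 0.0056). miR-195a-5p stood at 530.2, 633 and 589 CPM against 283, 229 and 233 CPM (2.35-fold; edgeR adjusted p = 0.000471). Neither overlapped between the tissues. The 2 clusters of miR-23, miR-27 and miR-24, also picked with their values in view, gave 2 and 3 hippocampal calls of 5 strands each, against 10.2% of all miRNAs, with miR-24-3p made from both. Of these, miR-24-1-5p lost its call under 7 of 16 alternatives: with no filter (adjusted p 0.107), with mouse number as a block (0.0810), without hippocampal mouse 2 or 3 (0.151 and 0.159), and without hypothalamic mouse 1, 2 or 3 (0.0872, 0.0928 and 0.0989). miR-27a-3p and miR-27b-3p were not called. miR-23b-3p stood at 1076, 1218 and 1318 CPM against 595, 584 and 628 CPM, and miR-24-3p at 2458, 2559 and 3182 CPM against 1638, 1429.7 and 1403 CPM (edgeR adjusted p = 0.000171 and 0.000338).

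The 9 listed members of the let-7 family, regulators of differentiation held in check by Lin28 proteins, had log2 fold changes above 0, from 0.06 to 0.50, with a median of 0.28 and 0 calls in either direction. let-7f-5p read 33118, 35627 and 31568 CPM in hippocampus and 25652, 26802 and 25098 CPM in hypothalamus, 1.29-fold higher, under the fold limit (edgeR adjusted p = 0.0369). Without hippocampal mouse 3, 1 listed member was called. Outside the list and chosen after its values were seen, let-7j read 1041, 1276 and 1245 CPM against 679.6, 617 and 697 CPM and was called higher in hippocampus (1.79-fold; edgeR adjusted p = 0.00591). Over all miRNAs, 10.2% were called higher in hippocampus and 14.4% in hypothalamus, with which the counts of the lists below compare. The miR-30 list gave 1 hippocampal call of 5. It gave 2 with DESeq2, limma, relative-log-expression factors, total reads, merged names or sums over precursors, 2 without hippocampal mouse 1 or hypothalamic mouse 3, and 0 without hippocampal mouse 2. The miR-181 list gave 0 of 4 and the miR-10 and miR-196 list 0 of 2. miR-10b-5p, a Hox cluster miRNA, read 2438, 3336 and 2173 CPM against 6565, 2697 and 5270.1 CPM, so hypothalamic mouse 2 overlapped hippocampus. Without that library 1 of the 2 members was called. The miR-200, miR-183 and miR-375 list gave 1 call of 9, miR-200b-3p in hippocampus (edgeR adjusted p = 0.0129), which was 0.0597 without hippocampal mouse 2 and 0.0524 without hypothalamic mouse 3. Without hippocampal mouse 2 the list gave 1 hypothalamic call instead, and without hypothalamic mouse 2 it gave 2 hippocampal calls. With mouse number as a block it gave 2 hippocampal calls and 1 hypothalamic call, and with DESeq2 it gave 1 each way. The chromosome X list around miR-322 gave 2 of 9, miR-322-5p and miR-503-5p in hippocampus, 1 without hippocampal mouse 2, hippocampal mouse 3 or hypothalamic mouse 1, and 0 without hypothalamic mouse 2. In these 4 fits miR-322-5p had an adjusted p of 0.0709, 0.0946, 0.0515 and 0.0786. miR-503-5p was at 0.0518 in the last of them and at 0.0575 with no filter. The miR-344 family gave 3 of 8 in hypothalamus. It gave 2 without hippocampal mouse 1 or hypothalamic mouse 1, 1 without hippocampal mouse 2, hippocampal mouse 3 or hypothalamic mouse 2, and 0 without hypothalamic mouse 3. It also gave 2 with DESeq2, limma, relative-log-expression factors, total reads, merged names or sums over precursors.

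The Dlk1-Dio3 region, an imprinted domain whose maternal transcripts hold a long row of brain miRNAs, leaned towards hypothalamus. Of 93 members tested, 21 were called higher in hypothalamus, where 14.4% of all miRNAs were, and 6 in hippocampus, where 10.2% were. The median log2 fold change was -0.17 against -0.08 over all. The members summed to 163896, 160728 and 197642 CPM in hippocampus and 286357, 322387 and 285402 CPM in hypothalamus, most of it miR-127-3p. Leaving out 1 library gave 15 to 22 hypothalamic and 4 to 12 hippocampal calls. The 12 came without hippocampal mouse 1, and 4 without hippocampal mouse 2 or hypothalamic mouse 2.

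Within the region, members differed widely. miR-134-5p, which limits dendritic spines by repressing Limk1, read 165, 147 and 147 CPM in hippocampus and 476, 595 and 554 CPM in hypothalamus, 3.54-fold higher with no overlap (edgeR adjusted p = 3.35e-05). miR-770-3p, whose hairpin lies in an exon of the noncoding RNA Meg3 at the start of the row, read 75.9, 52.3 and 48.1 CPM against 193, 306 and 260.5 CPM, 4.31-fold higher (edgeR adjusted p = 0.000535). miR-758-3p was 3.37-fold higher (edgeR adjusted p = 7.79e-05). The opposite was measured for miR-337-5p, at 379, 361 and 531 CPM in hippocampus and 221, 218 and 193 CPM in hypothalamus (2.01-fold higher in hippocampus; edgeR adjusted p = 0.000506). The 22 tested strands of the stretch around miR-127 had a median of -0.40 with 8 hypothalamic and 2 hippocampal calls, against 14.4% and 10.2% of all miRNAs. Of these, miR-673-3p, miR-136-5p and miR-493-5p lost their calls under 8, 4 and 3 of 16 alternatives. The 61 of the stretch from miR-1193 on had a median of -0.12, against -0.08 over all. They gave 9 hypothalamic and 3 hippocampal calls, the former near the 14.4% of all miRNAs.

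The Sfmbt2 cluster, a rodent-specific row of repeated miRNAs in an intron of Sfmbt2, gave 12 hypothalamic calls of 31, against 14.4% of all miRNAs, and 0 hippocampal calls, with a median of -0.70. Many of its names share all their reads, and with identical names merged 6 calls were left. The calls fell to 3 without hippocampal mouse 3, hypothalamic mouse 2 or hypothalamic mouse 3, to 4 without hippocampal mouse 1, to 5 without hypothalamic mouse 1 and to 8 without hippocampal mouse 2. miR-467a-5p, the most abundant name together with miR-467b-5p of the same counts, read 15.1, 14.8 and 11.8 CPM in hippocampus and 26.4, 23.4 and 23.0 CPM in hypothalamus (1.74-fold; edgeR adjusted p = 0.00531).

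The introns of Htr2c held miRNAs that went both ways. Htr2c mRNA was called higher in hypothalamus, at 59.5, 49.3 and 38.6 CPM in hippocampus and 125, 128 and 129.9 CPM in hypothalamus (log2 -1.38; edgeR adjusted p = 0.00057). Of 9 listed members tested, 3 were called the same way as the mRNA, against 14.4% of all miRNAs, and 2 the other way, against 10.2%. Hippocampal calls were 1 on leaving out any 1 library other than hypothalamic mouse 1, and hypothalamic calls were 2 on leaving out any 1 other than hippocampal mouse 1. miR-764-3p read 10.6, 9.06 and 8.57 CPM against 28.1, 32.5 and 33.7 CPM (3.33-fold higher in hypothalamus; edgeR adjusted p = 8.79e-05). miR-448-5p was 3.68-fold higher in hypothalamus (edgeR adjusted p = 0.00193), and so, outside the list, was miR-3552 by 4.97-fold (edgeR adjusted p = 0.000506). In contrast, miR-1912-3p read 10.6, 12.4 and 7.30 CPM against 2.42, 1.73 and 3.97 CPM, 3.68-fold higher in hippocampus (edgeR adjusted p = 0.00914).

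The miR-1298 hairpin (chrX:147064905-147065002, plus strand) was the only one of 170 with both arms tested whose arms were called in opposite directions. miR-1298-5p stood at 2762, 2272 and 1977 CPM in hippocampus and 1229, 408 and 1109.8 CPM in hypothalamus, 2.55-fold higher in hippocampus (edgeR adjusted p = 0.0391). miR-1298-3p stood at 222, 149.98 and 144 CPM and 289, 254 and 298 CPM, 1.63-fold higher in hypothalamus (edgeR adjusted p = 0.0312). Neither arm overlapped between the tissues. Both calls were near the limit. Without hippocampal mouse 2 or 3, or hypothalamic mouse 2 or 3, the adjusted p was 0.0753, 0.0646, 0.125 and 0.0532 for the 5′ arm, and 0.123, 0.117, 0.0823 and 0.121 for the 3′ arm. The 5′ arm read 0.0791 without hippocampal mouse 1 and the 3′ arm 0.10025 without hypothalamic mouse 1. The 3′ arm also lost its call with total reads (0.079), limma (0.0583), merged names (0.0568) and sums over precursors (0.0519), 9 of 16 alternatives in all, and the 5′ arm lost its call under 5. The hypothalamic library of mouse 2, lowest in miR-1298-5p and miR-1912-3p, was the one with the least Ttr, Kl and summed choroid plexus mRNA. The part of choroid plexus RNA in these differences was not tested.

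Arms and hosts were then compared across miRNAs. Of 170 hairpins with both arms tested, 108 had arms of the same sign, 21 had both arms called and 20 of these were called the same way. Pearson's r between the log2 fold changes of the arms was 0.69 across the 170 hairpins, which share libraries and, within clusters, transcripts. Across the 87 hairpins with both arms at 10 CPM or more, r was 0.63 and 56 had arms of the same sign. For 240 tested miRNAs with 1 hairpin inside 1 tested protein-coding gene, 150 genes in all, r between miRNA and host mRNA was 0.54; miRNAs in 1 host are not independent. Of 32 such miRNAs called higher in hypothalamus, 26 had a host with the same sign and 13 a host called the same way, and none had a host called the other way. Among the 15 called higher in hippocampus, 10 had a host with the same sign, 6 a host called the same way, and 2, miR-1298-5p and miR-1912-3p in Htr2c, a host called the other way. Over all 240, 22 miRNAs had a host called higher in hippocampus and 31 a host called higher in hypothalamus. The share of the 240 with a host of the same sign was not counted. The same-sign counts therefore have no background to be set against. Beyond the hosts above, Usp29 with miR-3099-3p (log2 -1.82 and -1.36) and Gap43 with miR-6540-5p (log2 -0.94 and -0.98) were called together in hypothalamus. Both pairs were chosen after their values were seen, and the call of miR-6540-5p ended without hippocampal mouse 1 (adjusted p 0.0505) or hypothalamic mouse 3 (0.0540).

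**Figure D5:**
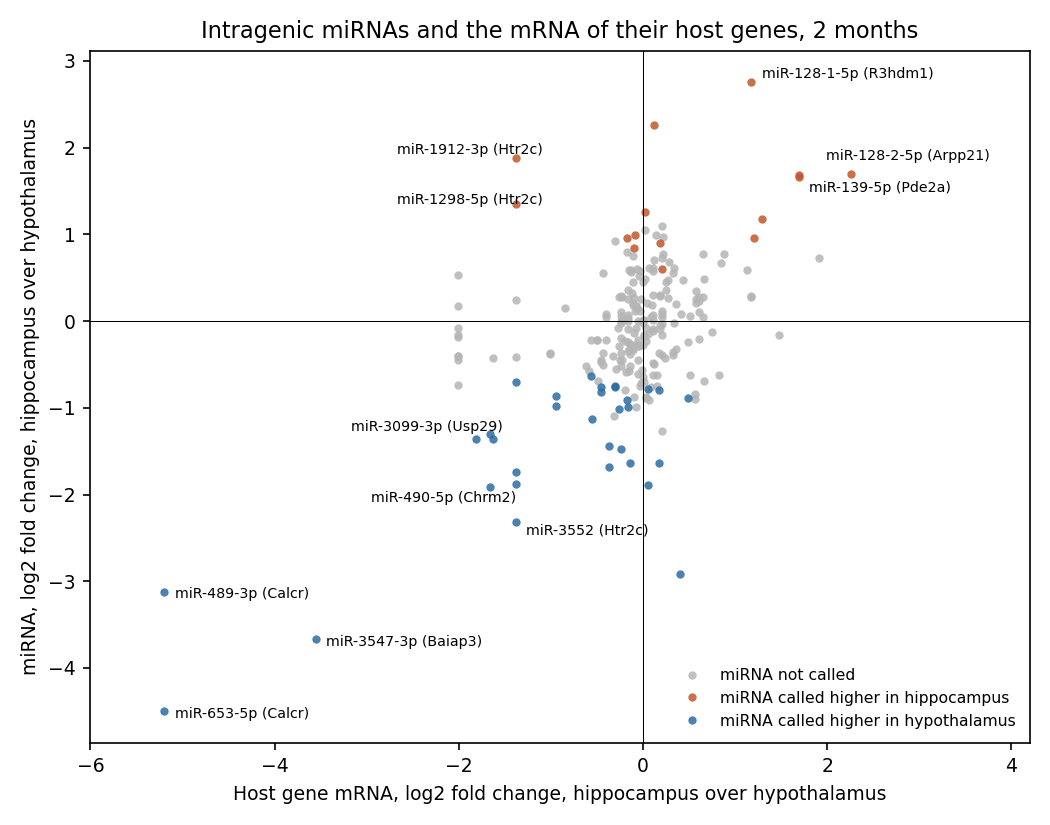
The log2 fold change at 2 months, hippocampus over hypothalamus, of 240 miRNAs against that of the mRNA of the gene that holds their hairpin, 1 point per miRNA, coloured by the call for the miRNA. Calcr (-5.20) with miR-653-5p (-4.50) and Arpp21 (2.26) with miR-128-2-5p (1.69) lie where both have the same sign, and miR-1912-3p (1.88) and miR-1298-5p (1.35) lie opposite Htr2c (-1.38).

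The mRNAs of the miRNA pathway were measured next. Of 18 tested of 19, 0 were called higher in hippocampus and 4 in hypothalamus, where 8.20% of all genes were, with a median log2 fold change of -0.08. Drosha, Dgcr8 and Dicer1, which cut the precursors, had log2 fold changes of 0.01, 0.02 and -0.14 and were not called. Lin28b, a repressor of let-7 maturation, read 4.17, 5.16 and 6.70 CPM in hippocampus and 11.1, 10.9 and 13.7 CPM in hypothalamus (2.23-fold; edgeR adjusted p = 8.6e-05). Lin28a was too low to test. Prkra, a partner of Dicer, was 1.78-fold higher in hypothalamus (edgeR adjusted p = 9.17e-05). The Argonaute gene Ago2 and the Argonaute partner Tnrc6a were both 1.51-fold higher, at the fold limit. The call of Ago2 ended without hippocampal mouse 2 (log2 -0.47), hippocampal mouse 3 (-0.57) or hypothalamic mouse 3 (-0.45), and that of Tnrc6a without hippocampal mouse 1 (-0.58) or hypothalamic mouse 3 (-0.52).

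The same tissue comparison in mice at 15 months, in other animals, served to compare the 2-month differences. Of the 73 miRNAs called higher in hippocampus at 2 months, 71 had the same sign at 15 months and 38 (52.1%) were called there. Of the 103 called higher in hypothalamus, 102 had the same sign and 70 (68.0%) were called. Over all 715 miRNAs, 581 had the same sign and 170 (23.8%) were called at 15 months, 67 (9.37%) higher in hippocampus and 103 (14.4%) in hypothalamus. miR-653-5p had log2 fold changes of -4.50 at 2 months and -4.60 at 15 months, and miR-128-1-5p 2.75 and 2.31. miR-143-3p, at -0.67 and 0.09, and miR-19b-3p, at 1.32 and -0.33, were among the 3 called miRNAs of opposite sign. The change of a tissue difference with age passed edgeR's test for 1 miRNA of 715 (0.140%), miR-296-5p, at an adjusted p of 0.0215; 22 had an unadjusted p under 0.05, and DESeq2 gave 1. The count was 2 with every miRNA of at least 1 read and 0 with mouse number as a block. It was also 0 without hippocampal mouse 2 or 3, hypothalamic mouse 2 or 3, or hypothalamic mouse 5 at 15 months. Failing that test does not show that the difference stayed the same.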

How the data were processed

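Small RNA and poly-A mRNA were measured in hippocampus and hypothalamus of mice at 2 and 15 months, 3 libraries per tissue and age. For the miRNA files, the authors made TruSeq small-RNA libraries, sequenced them on a HiSeq and ran miRDeep2 against miRBase, and deposited each value as a raw count of reads per precursor arm. A read that fits several names is counted in full at each, and 183 names fall in 48 groups of identical counts. The mRNA files hold expected counts per gene from RSEM, as deposited, which were rounded to whole numbers.

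The highest count over precursors was taken per mature name. The 12 miRNA libraries were fitted as 4 groups in edgeR 4.0.16 (filterByExpr, TMM, quasi-likelihood test) under R 4.3.3, and mRNA in the same way. A call needed a fold over 1.5 and a Benjamini-Hochberg adjusted p under 0.05 over all features tested. Tables and figures were made with Python 3.11.15, numpy 2.4.6, pandas 2.3.3 and matplotlib 3.10.9. Totals per library were 8834531 to 14617174 miRNA counts and 24902188 to 27157819 mRNA counts over both ages. The code was tested on simulated data.

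Alternatives were DESeq2 1.42.0, limma 3.58.1 on log2 values with a pseudocount of 1, relative-log-expression factors, scaling by total reads, no filter, at least 10 counts in each library, the 6 libraries at 2 months alone, merged names, sums over precursors, mouse number as a block, and leaving out each library. The labels number the mice alike in both tissues but do not state that a number stands for the same animal. To look for pairing, the mean of each tissue and age group was subtracted, per gene or miRNA, from log2 CPM with a pseudocount of 1. The remaining deviations, not the levels themselves, were correlated between tissues. At 2 months the deviations of mRNA libraries of the same number correlated at 0.106, 0.151 and 0.170 in mice 1 to 3. Those of the miRNA libraries correlated at 0.0541, -0.00611 and 0.197. The best match by this correlation was the library of the same number for 2 of 6 miRNA and 4 of 6 mRNA libraries, 3 of 3 of the latter at 2 months. No block was used for the values reported, and it was run as an alternative for both.

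Named miRNAs are the 12 called miRNAs per direction with the largest fold among those with separate libraries and at least 10 CPM, the 10 most abundant per tissue, the 5 called per direction with the largest CPM difference, and members of the lists; named genes are the hosts of these, miRNA pathway genes and cell type markers. The members and lists were chosen with earlier results of these data known. Sequences come from the deposited files; 1204 of 1435 names matched RefSeq (GRCm38.p6, mm10) by name, 1196 with the same sequence.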

Additional observations from a re-analysis of the deposited data

Results flagged for a closer look

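The tissue difference of miR-296-5p changed with age, which is what marked it for a closer look. It stood at 46.4, 47.9 and 55.6 CPM in hippocampus and 84.1, 73.1 and 77.1 CPM in hypothalamus at 2 months. At 15 months it stood at 14.4, 10.2 and 14.5 CPM in hippocampus and 54.9, 58.9 and 50.3 CPM in hypothalamus. All 3 libraries of hypothalamus were above all 3 of hippocampus at each age. The log2 fold change, hippocampus over hypothalamus, was -0.64 at 2 months and -2.07 at 15 months. The difference between them was 1.43 ± 0.24 (SE; edgeR's quasi-likelihood test, adjusted p = 0.0215). This was the 1 miRNA of 715 to pass, and it was chosen after its values were seen. No miRNA passed with mouse number as a block, or without hippocampal mouse 2 or 3, hypothalamic mouse 2 or 3, or hypothalamic mouse 5. The cause was not tested.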

How the results depend on the processing

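The count of miRNAs higher in hippocampus, 73, was within 1.5 times that value under every alternative run, from 55 to 101. The count of genes called in either direction from mRNA, 2794, ran from 2521 to 2931. The count higher in hypothalamus, 103, was within 1.5 times except when a library was left out, with 61 to 78: 63 without hypothalamus mouse 2 and 61 without hypothalamus mouse 3, where fewer samples were fitted. The age by tissue count of 1 was 2 with every miRNA of at least 1 read, 0 with the replicate block, and 0 to 1 when a library was left out.

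Values near 0 changed sign, and the cause was not tested. The log2 fold change of miR-181a-5p was 0.00641 with DESeq2, 0.00641 with relative-log-expression factors, 0.00683 by total reads, 0.0130 with limma, 0.0224 with merged names and 0.0196 with sums over precursors, and -0.0984 to 0.0445 when a library was left out. That of miR-204-5p was, in the same order, 0.0357, 0.0357, 0.0569, 0.0245, 0.0543 and 0.0368, then 0.000268 in the 6 libraries at 2 months alone and -0.167 to 0.183 when a library was left out. Drosha was -0.00210 with DESeq2, -0.00217 with relative-log-expression factors and -0.0260 to 0.0739 when a library was left out. Tnrc6b was -0.0101 and -0.0101, -0.00349 in the 6 libraries and -0.0590 to 0.0980. For Dgcr8 leaving out a library gave -0.0106 to 0.0265, for Hnrnpa1 -0.0418 to 0.0265, for Prox1 -0.562 to 0.112 and for C1ql2 -0.574 to 0.151.

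Named miRNAs kept direction and side of the threshold in 180 cases with DESeq2, 168 with relative-log-expression factors and 169 with limma, and 4, 18 and 16 fell short of it. Leaving out a library left 125 to 148 on the same side. With 3 libraries a tissue, calls near the limits rest on single libraries, and miRNAs under the count filter were not tested.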
